A study of Mus musculus with 20 samples.

Results

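The regions described here lie upstream of mouse pseudogenes, in a table of read counts over the stretch before the start of each annotated gene. Pseudogenes were taken as the genes whose GENCODE M21 type ends in pseudogene, and a region was kept when its counts summed to 10 or more over the 19 libraries of the table. This gave 3569 regions, of 55471 in the table and of 13519 upstream of pseudogenes. Of the pseudogene regions left out, 5091 had no count and 4859 had 1 to 9. The regions were thus chosen by their summed count, and 12 of the 19 libraries behind it were Zcchc8 knockouts. At the edge of that choice, 117 regions had a total of 9 and 107 a total of 10, with a median of 6 and 7 counts in the knockout libraries, and none of them was tested. Most regions were thinly covered: the median total was 132 counts, 1223 regions held under 50, and the 10 largest held 10.9% of all counts in the set.

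A promoter commonly starts transcription in both directions, and the RNA made upstream of a gene, called a promoter upstream transcript (PROMPT), is normally destroyed in the nucleus soon after it is made. The nuclear exosome targeting (NEXT) complex, built of the helicase MTREX, the RNA-binding protein RBM7 and the zinc-finger scaffold ZCCHC8, hands such RNA to the RNA exosome, a degrading enzyme complex. Pseudogenes are broken copies of genes. A processed pseudogene is a messenger RNA copied back into the genome, and it usually arrives without the promoter of its parent. An unprocessed pseudogene comes from a duplicated stretch of DNA and can bring flanking sequence along, and a unitary pseudogene is a gene that lost its function in place.

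The cells were SIMS, a line of mouse salivary gland, grown in DMEM with 10% fetal bovine serum, and their total RNA was sequenced. The 5 groups were unedited wild type, a line in which Btbd7 was knocked out (KO) with CRISPR/Cas9, which the submitters call their negative control, and 3 Zcchc8 KO clones made with the same method. Each group had 4 libraries in the series, but upstream counts of wild-type replicate 1 were not analysed here, so 3 wild-type libraries stood against 4 of each edited line. Each Zcchc8 KO clone is a single clone, and whether the Btbd7 KO line is one is not said. The labels do not say whether the libraries of a group came from separate cultures, so the p-values measure the spread between libraries, which may be technical.

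Gene counts per library ran from 13876944 to 17771804 in wild type, from 8280397 to 17115112 in Btbd7 KO, from 6833258 to 7683444 in clone 1, from 7053304 to 16994115 in clone 2 and from 7578027 to 14593557 in clone 3. Between 2496 and 3139 of the 3569 regions had at least 1 count in a library. Values are given as CPM, which scales a region's counts to the gene counts of its library, so that a change shared by all upstream regions stays visible. Zcchc8 RNA averaged 65.2 CPM in wild type, 62.2 in Btbd7 KO, 60.8 in clone 1, 23.5 in clone 2 and 54.5 in clone 3, so its level was far below wild type in clone 2 only, and the edited alleles themselves were not analysed here. Of the epithelial markers, Krt8, Krt18, Krt7, Krt19, Krt14, Cdh1 and Epcam had group means between 153 and 1292 CPM, and Krt5 stayed at or below 0.309 CPM. The acinar marker Aqp5 was present at 110.7 to 174 CPM, while the amylase gene Amy1, which defines serous acinar cells, stayed at or below 0.300 CPM. Several markers differed from wild type in the mean of the Zcchc8 KO clones. By edgeR, Krt7 (-0.77), Krt14 (-0.61), Krt18 (-0.56), Krt8 (-0.52), Aqp5 (-0.38) and Krt19 (-0.23) were lower. Epcam (0.17), the fibroblast marker Col1a1 (0.57, group means 10.8 to 24.5 CPM) and the macrophage marker Cd68 (0.61, 5.49 to 11.3 CPM) were higher. Some of these means did not describe every clone. Krt19 averaged 250 CPM in wild type but 349 in clone 2, and Col1a1 12.3 in wild type but 10.8 in clone 1. Cd68 averaged 5.49 CPM in wild type and 5.53 in clone 3. Aqp5 was lowest in Btbd7 KO, at 110.7 CPM. The fibroblast marker Pdgfra, the leukocyte marker Ptprc and the endothelial markers Pecam1 and Cdh5 stayed at or below 0.542 CPM, and the part of these shifts in the results was not tested.

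How far a region reaches and whether its counts follow the strand are not given in the sources used here. Small RNA genes were used as a check. Where such a gene lay 500 to 3000 bases upstream of another gene's start, the upstream region held at least 80% of its counts in 29 of 50 pairs on the same strand and in 27 of 35 on the opposite strand. Nearer than 500 bases this was so in 4 of 17 and 18 of 30 pairs, between 3000 and 6000 bases in 9 of 63 and 6 of 23, and between 6000 and 12000 bases in 24 of 76 and 11 of 38, so the check gives no sharp end of the regions. Reads of a neighbouring or surrounding gene, on either strand, can therefore enter a region's count, and no count below can be assigned to 1 strand. Processed pseudogenes are also near copies of other genes, and how reads with several matches were counted is not stated.

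Start-site sequences show what such a region can hold. RefSeq promoter windows, which run from 250 bases before to 50 bases after a start, matched 61 of the 3569 pseudogenes by symbol. In 25 the RefSeq start lay within 100 bases of the GENCODE start, and 17 of these had an upstream region with enough counts for a test. In Zcchc8 KO 4 of the 17 were called higher, none lower and 13 were not called, the edgeR call being an adjusted p under 0.05. The windows of the 3 called higher with the largest change and of the 3 not called with the most counts follow, read 5′ to 3′ on the pseudogene's strand in build GRCm38.p6, with every CG dinucleotide in capitals. They were chosen after the values were seen. 4930471M09Rik is at chr6:91440805-91441104, minus strand, B330016D10Rik at chr4:141545912-141546211, plus strand, and Ube2d-ps, named after ubiquitin-conjugating enzymes, at chr11:5761900-5762199, plus strand. The 3 not called are Rpl37rt at chr5:115110219-115110518, minus strand, Gm48175 at chr10:85954655-85954954, plus strand and Rpl32l at chr10:20208189-20208488, plus strand.
4930471M09Rik: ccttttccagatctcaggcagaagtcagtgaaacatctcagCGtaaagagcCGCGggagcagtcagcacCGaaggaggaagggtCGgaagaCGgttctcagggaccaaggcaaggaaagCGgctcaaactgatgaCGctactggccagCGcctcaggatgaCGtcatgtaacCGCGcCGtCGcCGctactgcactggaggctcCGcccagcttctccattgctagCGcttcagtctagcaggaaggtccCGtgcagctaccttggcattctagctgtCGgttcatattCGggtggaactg
B330016D10Rik: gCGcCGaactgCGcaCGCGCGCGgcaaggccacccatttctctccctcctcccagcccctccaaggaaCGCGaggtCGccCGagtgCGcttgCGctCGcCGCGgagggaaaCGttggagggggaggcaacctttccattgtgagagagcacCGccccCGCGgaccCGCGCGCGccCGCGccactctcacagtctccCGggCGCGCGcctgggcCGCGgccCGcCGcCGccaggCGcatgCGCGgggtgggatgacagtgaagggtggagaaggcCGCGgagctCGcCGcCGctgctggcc
Ube2d-ps: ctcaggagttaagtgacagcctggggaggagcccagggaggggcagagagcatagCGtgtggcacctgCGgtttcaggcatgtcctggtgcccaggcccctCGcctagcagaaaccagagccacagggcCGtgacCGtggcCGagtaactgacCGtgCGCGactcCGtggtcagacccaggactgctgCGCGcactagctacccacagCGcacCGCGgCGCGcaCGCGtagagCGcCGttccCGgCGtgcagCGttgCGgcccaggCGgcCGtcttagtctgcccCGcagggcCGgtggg
Rpl37rt: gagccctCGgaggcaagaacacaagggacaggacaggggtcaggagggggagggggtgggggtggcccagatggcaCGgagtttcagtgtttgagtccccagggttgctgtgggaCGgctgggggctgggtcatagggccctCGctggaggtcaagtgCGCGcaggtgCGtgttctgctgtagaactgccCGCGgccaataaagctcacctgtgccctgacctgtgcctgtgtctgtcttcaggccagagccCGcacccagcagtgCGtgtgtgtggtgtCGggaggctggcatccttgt
Gm48175: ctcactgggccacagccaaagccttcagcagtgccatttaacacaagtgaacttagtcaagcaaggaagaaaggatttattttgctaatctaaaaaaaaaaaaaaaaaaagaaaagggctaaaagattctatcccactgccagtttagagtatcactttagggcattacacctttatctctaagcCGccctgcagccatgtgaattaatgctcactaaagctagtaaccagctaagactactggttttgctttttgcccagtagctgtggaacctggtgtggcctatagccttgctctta
Rpl32l: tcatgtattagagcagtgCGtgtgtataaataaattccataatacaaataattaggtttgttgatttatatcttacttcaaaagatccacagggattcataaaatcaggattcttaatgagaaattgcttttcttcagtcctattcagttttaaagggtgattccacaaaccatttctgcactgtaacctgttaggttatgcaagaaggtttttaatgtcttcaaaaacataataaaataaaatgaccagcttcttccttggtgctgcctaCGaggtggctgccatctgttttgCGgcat

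The window of B330016D10Rik held 43 CG dinucleotides in 300 bases, more than 97.4% of the 32851 windows in the table, where the median was 7. Ube2d-ps had 29 and 4930471M09Rik 20. Over the 4 called higher the median was 24.5, and over the 13 not called it was 7, with values from 0 to 26. Rpl37rt had 12, Rpl32l 3 and Gm48175 1. None of the 3 windows shown for called regions had TATAAA on either strand, and Rpl32l had it, against 13.6% of all windows. The letters AATAAA, the usual polyadenylation signal, were found on either strand in Rpl37rt, Gm48175 and Rpl32l and in none of the 3 called, against 19.6% of all windows. These are counts of letters in windows of a few genes, and nothing was tested.

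The region upstream of 4930471M09Rik, a transcribed processed pseudogene with 1810044D09Rik as its opposite-strand neighbour, stood at 0.577, 0.74 and 0.176 CPM in wild type, 0.599, 0.597, 1.61 and 0.678 in Btbd7 KO, 8.94, 6.25, 9.19 and 5.29 in clone 1, 4.44, 3.23, 4.26 and 5.96 in clone 2 and 4.45, 4.92, 5.88 and 5.41 in clone 3. All 12 knockout libraries lay above all 7 controls (log2 fold change 3.49, SE 0.35, adjusted p = 3.92e-13; edgeR quasi-likelihood test). Upstream of B330016D10Rik, which has no annotated neighbour within 5 kb upstream, the values were 0.693, 0.296 and 0.293 CPM in wild type, 0.539, 0.265, 0.62 and 0.848 in Btbd7 KO, 3.02, 4.48, 1.9 and 2.19 in clone 1, 1.67, 2.08, 1.55 and 2.01 in clone 2 and 1.77, 1.26, 2.3 and 1.89 in clone 3. The groups again did not overlap, at a lower level (log2 fold change 2.27, SE 0.45, adjusted p = 2.38e-05; edgeR). For both of these regions only 1 control library reached the count minimum of the filter, so they were tested only because of the knockout libraries in which they were high. For Ube2d-ps, which lies inside Urgcp on the opposite strand, the means were 4.64 ± 1.25 CPM in wild type (SD, n = 3), 4.78 ± 0.759 in Btbd7 KO, and 8.32 ± 1.48, 7.22 ± 0.794 and 8.39 ± 1.21 in clones 1, 2 and 3 (SD, n = 4 each), a smaller change (log2 fold change 0.79, SE 0.18, adjusted p = 0.000271; edgeR). Rpl37rt, by contrast, averaged 25 ± 2.63 CPM in wild type (SD, n = 3) and between 26.1 and 28.9 CPM in the clones, and was not called (log2 fold change 0.12, SE 0.11, adjusted p = 0.388; edgeR).

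Across the set, the regions upstream of pseudogenes changed little when Zcchc8 was knocked out, and less than the upstream regions of other genes. Summed over all 3569 regions, the counts came to 11938 to 12253 CPM in the 3 wild-type libraries, 11815 to 12143 in the 4 of Btbd7 KO and 12536 to 13217 in the 12 of Zcchc8 KO, which were all above every control. The ratio of Zcchc8 KO to wild type was 1.06 (log2 difference 0.08). A two-sided exact permutation test over libraries gave p = 0.0044, the smallest that 12 against 3 allows, and an adjusted p of 0.0293 over 20 such comparisons. Relative to the summed counts of all other upstream regions, the same sum fell by 0.14 on the log2 scale, to a ratio of 0.908, in all 12 libraries (exact permutation p = 0.0044, adjusted p = 0.0293). As a share of all upstream counts the regions made up 6.11% in wild type, 6.18% in Btbd7 KO, 5.40% in clone 1, 5.72% in clone 2 and 5.63% in clone 3. For a single clone against wild type the smallest p is 0.0571, and no clone and not Btbd7 KO passed after adjustment. The libraries of a clone share that clone, which the test does not take into account.

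Region by region, 2077 of the 3569 had enough counts for edgeR's quasi-likelihood test, fitted over all 17711 upstream regions tested. Against wild type, 341 were called higher in the mean of the 3 Zcchc8 KO clones, or 16.4%, where 39.7% of all upstream regions were, and 57.8% of those of protein-coding genes. Another 91 were called lower, or 4.38%, against 3.5% of all. With cell lines in place of libraries as replicates, the 3 clones against wild type and Btbd7 KO together, 311 were higher and 24 lower. With the mean of clones 2 and 3 it was 333 and 57. The median log2 fold change was 0.16, beside 0.45 over all regions tested and 1.23 for protein-coding genes. In clone 1, 323 were higher and 106 lower (39.3% and 3.82% of all regions), in clone 2, 289 and 65 (35.8% and 3.2%), and in clone 3, 348 and 54 (36.5% and 2.48%). The mean and each clone agreed in 177 regions called higher and 9 called lower, where 28.7% and 0.525% of all regions were. Against Btbd7 KO, which shares the knockout libraries, 471 were higher and 146 lower (45.5% and 5.8% of all regions). In Btbd7 KO itself, 20 were higher than wild type and 32 lower, near the 1.32% and 1.71% of all regions. Leaving out single libraries moved these to between 13 (without wild-type replicate 3) and 33 (without wild-type replicate 2) higher, and to between 15 (without Btbd7 KO replicate 4) and 33 lower, with 17 and 21 without Btbd7 KO replicates 2 and 3 and 18 without wild-type replicate 4.

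Filter and scaling limit these counts. Of the 2077 tested regions, 1278 reached the count minimum in all 3 wild-type libraries, and among these 145 were higher and 86 lower (11.3% and 6.73%, against 25.9% and 5.79% of all upstream regions at that minimum), with a median of 0.02. Of the 799 that did not, 196 were higher and 5 lower (24.5% higher, against 59.4% of all such regions). For 477 regions fewer than 3 of the 7 control libraries reached the minimum, so they passed the filter only with Zcchc8 KO libraries, which favours a higher value there. Of these 147 were called higher, or 30.8%, against 65.3% of all upstream regions in that position. Scaling decides the balance of directions: with library sizes taken from the upstream table itself, which lowers the median of all regions by 0.42, 196 were called higher and 538 lower.

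Location was then compared, since a region inside an active gene also collects that gene's RNA. By GENCODE M21, 1069 pseudogenes start inside another gene on the opposite strand and 623 inside one on their own strand. Another 306 have an opposite-strand gene reaching into the 5 kb upstream, 238 only a same-strand gene there, and 1333 are isolated, with no other gene over their start or in those 5 kb. A gene named in these results as surrounding or neighbouring is the one with the most counts among those there. Its position and strand may therefore differ from those of the class. Regions inside genes were the best covered, with a median total of 430 counts on the opposite strand and 293 on the same strand, against 44 for isolated ones. Of the tested regions, 93 of 821 inside on the opposite strand were higher and 36 lower, and 63 of 447 inside on the same strand were higher and 25 lower. Among isolated regions 101 of 502 were higher and 13 lower, among same-strand neighbours 17 of 135 were higher and 7 lower, and among opposite-strand neighbours 67 of 172 were higher and 10 lower. Opposite-strand neighbours thus held the highest share called higher, 39.0%, close to the 39.7% of all regions, and the regions inside genes on the opposite strand the lowest, 11.3%.

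**Figure D1:**
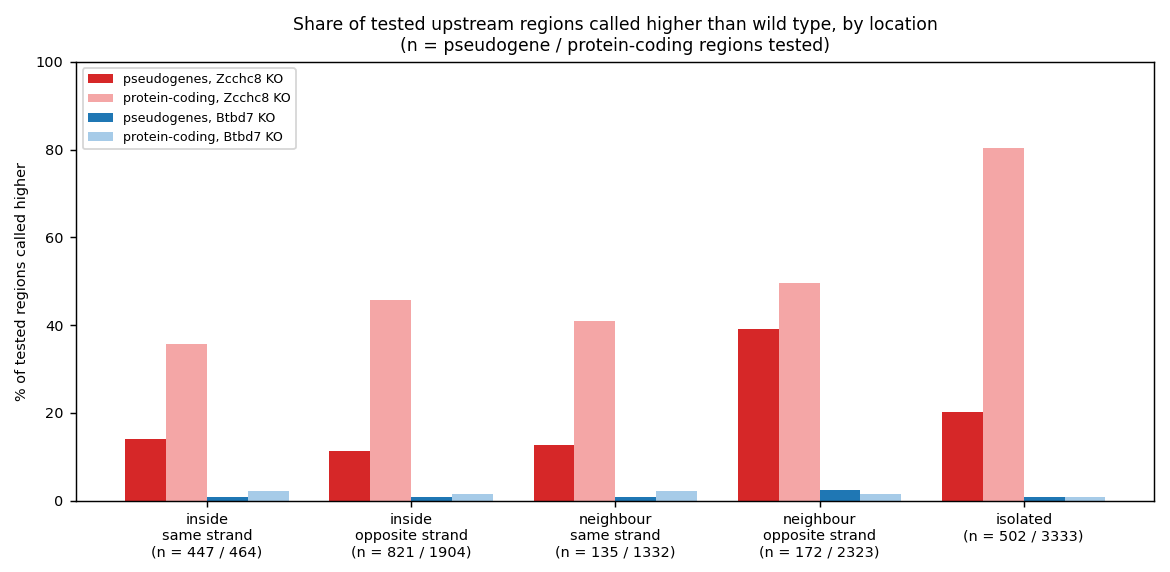
Share of tested upstream regions called higher than wild type (edgeR, adjusted p under 0.05), in percent, by location class, for pseudogenes and protein-coding genes in Zcchc8 KO (mean of the 3 clones) and in Btbd7 KO. In Zcchc8 KO the pseudogene bars run from 11.3% to 39.0% and the protein-coding bars from 35.6% to 80.3%, while the bars of Btbd7 KO stay at or under 2.33%.

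The gap to protein-coding genes was widest where no neighbour lies upstream. Isolated pseudogene regions summed to 1381 to 1500 CPM in wild type, 1477 to 1522 in Btbd7 KO, 1722 to 1865 in clone 1, 1514 to 1689 in clone 2 and 1731 to 1779 in clone 3. Isolated regions of protein-coding genes went from 3799 to 3931 CPM in wild type and 3588 to 3739 in Btbd7 KO to 15330 to 15975 in clone 1, 12360 to 12754 in clone 2 and 12313 to 13052 in clone 3. The ratio of the former to the latter fell by 1.60 on the log2 scale in Zcchc8 KO, to 0.331 of its wild-type value (exact permutation over libraries, p = 0.0044, adjusted p = 0.0293; lower in 12 of 12), a comparison added after the data were seen. Region by region, 20.1% of the isolated pseudogene regions tested were called higher, with a median log2 fold change of 0.36, where 2677 of 3333 isolated protein-coding regions were, with a median of 2.49. Within the set, isolated regions summed against those inside genes were higher by 0.18 on the log2 scale in Zcchc8 KO, which did not pass after adjustment (exact permutation p = 0.0308, adjusted p = 0.0714). That difference was 0.15 with a 10 kb window in place of 5 kb, and 0.15 to 0.22 when single libraries were left out. By the same measure with the 5 kb window, clones 1 and 3 stood 0.28 and 0.21 above wild type. Clone 2 stood only 0.07 above, as did the Btbd7 KO control, and no single line passed after adjustment.

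**Figure D2:**
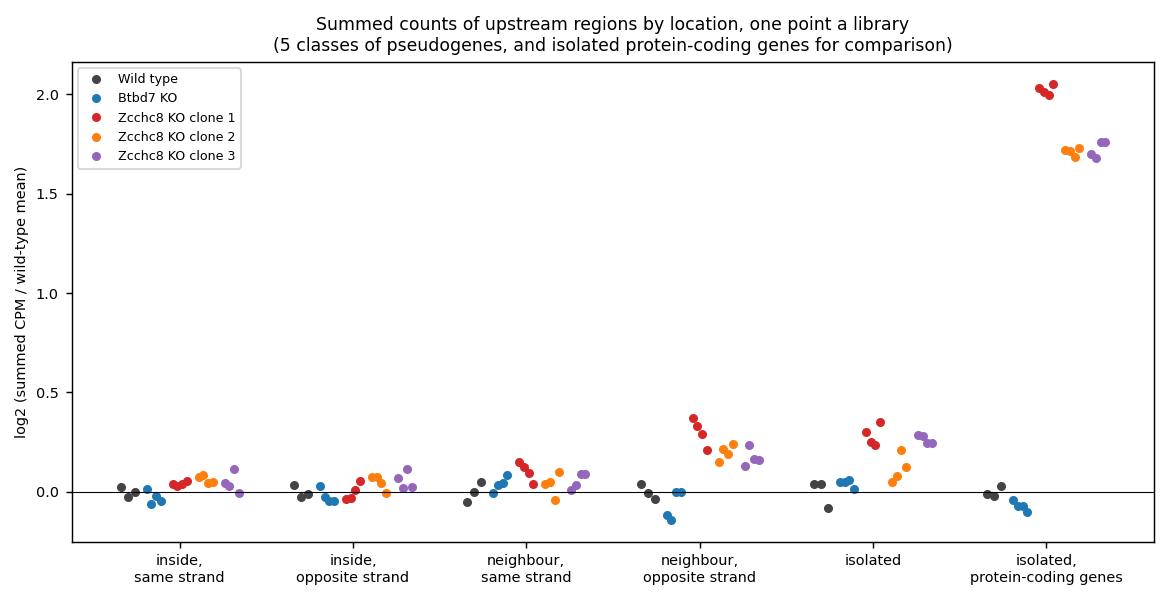
Summed CPM of upstream regions in each library, as log2 of the ratio to the wild-type mean, for the 5 location classes of pseudogenes and, at the right, for isolated protein-coding genes. Every Zcchc8 KO library of the isolated protein-coding class stands far above the controls, whereas the isolated pseudogene regions, 1514 to 1865 CPM in Zcchc8 KO against 1381 to 1500 in wild type, moved little.

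The share called was also taken by whether a protein-coding gene starts nearby. The 3 kb before 277 pseudogenes overlap the 3 kb before a protein-coding gene, and 75 of the 186 of these that were tested, 40.3%, were called higher, with a median log2 fold change of 0.50, near the 39.7% of all upstream regions. For the remaining 3292 regions it was 266 of 1891, 14.1%, with a median of 0.13, and the difference between these classes was not tested. With an opposite-strand gene starting within 5 kb, 87 of 241 were higher, 36.1%, and without one 254 of 1836, 13.8%. Examples are Pgam1-ps2 beside Sertad3 (log2 fold change 2.71), Gm37545 in Plod2, a collagen lysyl hydroxylase (2.45), and Gm43013 beside Srrt, the cap-binding cofactor ARS2 (0.86), all called higher by edgeR in each clone and chosen after their values were seen. In such places the RNA of the pseudogene's upstream region and the PROMPT of the neighbouring gene cannot be told apart in these counts.

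The regions that changed most were then read library by library. With a mean of at least 50 counts a library, 50 regions were called higher for the mean and in each clone and not called in Btbd7 KO, with log2 fold changes from 0.50 to 3.66 and a median of 0.98. Of these 18 are inside a gene on the opposite strand, 8 inside one on the same strand, 12 beside an opposite-strand neighbour, 6 beside a same-strand one and 6 isolated, and 17 overlap a protein-coding gene's upstream window. The 6 with the largest change are described in turn, and 4 of them are isolated.

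Gm20257 (chr1:58652641-58655831, plus strand, GRCm38), a transcribed unprocessed pseudogene inside Als2cr12 on the opposite strand, had the largest change. Its upstream region stood at 2.6, 2.29 and 2.23 CPM in wild type, 3.24, 2.52, 3.6 and 2.2 in Btbd7 KO, 41.8, 45.5, 37.5 and 39.9 in clone 1, 23.6, 15.7, 20.1 and 20 in clone 2 and 31.3, 33.6, 32.2 and 37.5 in clone 3. The lowest knockout library was several times above the highest control, and clone 2 lay below both other clones (log2 fold change 3.66, SE 0.16, adjusted p = 3.35e-29; edgeR quasi-likelihood test). Als2cr12 itself was low, at 145 counts in all 19 libraries, and was not called (log2 fold change 0.59, edgeR adjusted p = 0.485). The pseudogene's own RNA averaged 1.32 CPM in wild type and 2.16, 1.87 and 2.47 in clones 1, 2 and 3, and was not called either (log2 fold change 0.70, edgeR adjusted p = 0.115).

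Magef1 (chr16:21331902-21333356, minus strand), annotated in GENCODE M21 as a transcribed processed pseudogene, is isolated. Its region stood at 0.52, 0.296 and 2.05 CPM in wild type, 1.14, 1.92, 1.49 and 0.763 in Btbd7 KO, 13.5, 12.5, 13.7 and 11.1 in clone 1, 9.72, 10.6, 7.19 and 10.3 in clone 2 and 10.1, 10.7, 9.59 and 10.3 in clone 3. All knockout libraries lay above all controls, while wild-type replicate 4 was well above the other wild-type libraries (log2 fold change 3.42, SE 0.27, adjusted p = 5.97e-17; edgeR). Without that library the log2 fold change was 4.63. Here the pseudogene's own RNA rose too, less than the region, from 6.12 CPM in wild type to 12.2, 11.2 and 8.95 in the clones (log2 fold change 0.80, edgeR adjusted p = 0.000328).

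Rpl30-ps6 (chr1:86473659-86474006, plus strand), a copy of the message of a large ribosomal subunit protein, is isolated in GENCODE M21. Its region stood at 2.42, 3.7 and 1.52 CPM in wild type, 1.8, 2.26, 2.6 and 2.71 in Btbd7 KO, 32.3, 30.4, 32.7 and 31.4 in clone 1, 14.6, 17.1, 21.3 and 21 in clone 2 and 21.8, 20.8, 24 and 22.8 in clone 3. Every knockout library was above every control, with clone 1 the highest (log2 fold change 3.24, SE 0.17, adjusted p = 1.21e-24; edgeR). The pseudogene had 19 counts of its own in 19 libraries, against 3187 in its upstream region. RefSeq annotates another gene there, Gm41907, which starts 793 bases upstream on the opposite strand. Its promoter window (chr1:86472817-86473116, minus strand) is shown because it holds another annotated start just upstream of this pseudogene. It reads, 5′ to 3′ on the strand of Gm41907 and with CG dinucleotides in capitals:
Gm41907: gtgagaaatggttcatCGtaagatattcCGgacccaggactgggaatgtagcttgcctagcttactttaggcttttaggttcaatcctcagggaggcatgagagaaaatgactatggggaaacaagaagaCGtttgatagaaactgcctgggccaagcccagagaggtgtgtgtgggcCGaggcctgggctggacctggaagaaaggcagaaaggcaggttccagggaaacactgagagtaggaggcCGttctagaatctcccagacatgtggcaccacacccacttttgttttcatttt

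This window held 5 CG dinucleotides, against a median of 7 over all windows, and neither TATAAA nor AATAAA on either strand. Which of the 2 starts the counted RNA belongs to was not tested.

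Gm5530 (chr1:81741985-81742969, minus strand) and Gm8079 (chr8:79549774-79550748, minus strand), both isolated processed pseudogenes, differed in how the clones ranked. Upstream of Gm5530 the values were 0.751, 1.92 and 0.88 CPM in wild type, 0.599, 1.06, 2.23 and 1.44 in Btbd7 KO, 9.2, 16.4, 12.7 and 13.7 in clone 1, 6.94, 4.67, 6.56 and 8.05 in clone 2 and 15.2, 18.9, 18.7 and 17 in clone 3. Clone 3 was highest and clone 2 lowest, and all were above the controls (log2 fold change 3.30, SE 0.25, adjusted p = 1.3e-17; edgeR; clones unequal, adjusted p = 1.47e-06). Upstream of Gm8079 they were 0.866, 1.92 and 0.762 CPM in wild type, 0.839, 1.92, 2.36 and 1.44 in Btbd7 KO, 21.6, 19.6, 23.1 and 20.9 in clone 1, 5.55, 4.38, 5.98 and 5.76 in clone 2 and 7.42, 4.55, 7.42 and 8.05 in clone 3. Here clone 1 stood far above clones 2 and 3, which overlapped each other and were still above every control (log2 fold change 3.01, SE 0.25, adjusted p = 2.77e-16; edgeR; clones unequal, adjusted p = 3.84e-12). The RNA of both pseudogenes was called higher as well, with log2 fold changes of 1.87 for Gm5530 (edgeR adjusted p = 0.0474) and 2.04 for Gm8079 (adjusted p = 0.000257), from 0.22 and 0.542 CPM in wild type. The RNA of Gm5530 was as high in Btbd7 KO, at 0.781 CPM, as in the clones, at 0.996, 0.603 and 0.99, without a call there (log2 fold change 1.77, edgeR adjusted p = 0.159).

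Gm11701 (chr2:144364127-144365627, minus strand) is a neighbour of Kat14, a histone acetyltransferase gene on the opposite strand, and its upstream window also overlaps that of Pet117, an assembly factor of cytochrome c oxidase. The region stood at 1.27, 0.888 and 0.704 CPM in wild type, 0.42, 1.13, 0.248 and 0.424 in Btbd7 KO, 11.4, 11.7, 11.8 and 10.6 in clone 1, 5.14, 4.67, 6.21 and 7.01 in clone 2 and 5.37, 5.56, 5.5 and 5.54 in clone 3. Clone 1 was the highest and clones 2 and 3 overlapped, with all controls below them (log2 fold change 2.88, SE 0.27, adjusted p = 3.51e-14; edgeR). Kat14 itself was not called (log2 fold change 0.07, edgeR adjusted p = 0.484).

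**Figure D3:**
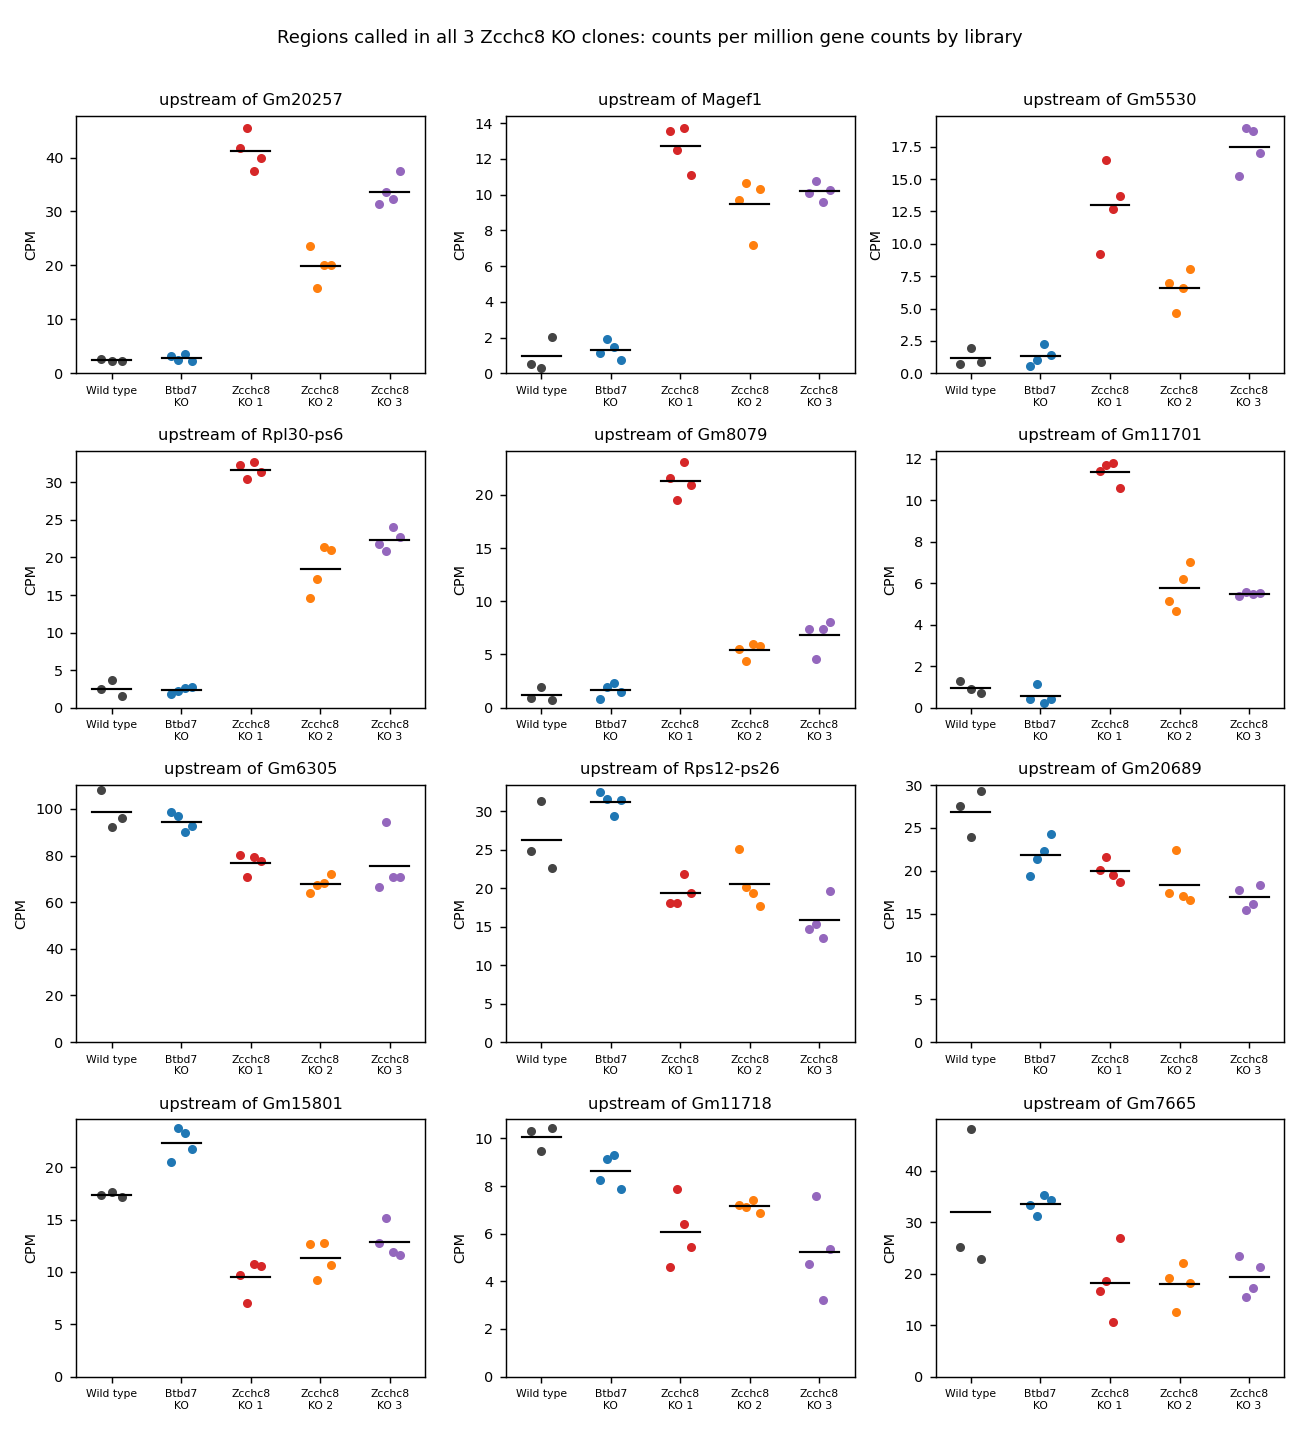
CPM by library for the 6 regions with the largest rise and the 6 with the largest fall among those called for the mean and in each Zcchc8 KO clone, each panel with its own axis from 0. Points are libraries and bars are group means. In the upper 6 panels all Zcchc8 KO libraries lie above all wild-type and Btbd7 KO libraries, and in the lower 6 the log2 fold changes run from -0.78 to -0.43.

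Some regions were nearly silent in the controls. Of those tested, 34 had 3 counts or fewer in each of the 7 control libraries, and edgeR called 27 of them higher, 16 in each clone, or 79.4% and 47.1%, against 95.7% and 77.8% of all upstream regions this low in the controls. They were picked for their low controls, so the direction is a description. Mup-ps23, related to the major urinary protein genes, had 0 counts upstream in all 7 controls. In the clones its region held 20, 20, 15 and 24 counts in clone 1, 4, 10, 30 and 27 in clone 2 and 25, 9, 17 and 35 in clone 3. Against a floor of 3 counts in each wild-type library, or 0.190 CPM, it was at least 13.96-fold higher in clone 1, 6.398-fold in clone 2 and 9.776-fold in clone 3. The pseudogene itself rose from 0.272 CPM in wild type to 4.96, 3.02 and 4.55 (log2 fold change 3.86, edgeR adjusted p = 1.15e-08). Gm9687 and Lamr1-ps1, named after the laminin receptor, were isolated cases, with means of 2.05 and 0.872 CPM in clone 1, 0.569 and 1.07 in clone 2, and 0.917 and 0.946 in clone 3. Over the whole set, 106 regions, 2.97%, had no count in any control library and 8, 0.224%, had none in any knockout library, against 2.51% and 0.115% of all upstream regions with 10 or more counts, but the knockouts had 12 libraries and the controls 7.

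Falls were smaller. Only 8 regions were called lower under the same conditions, with log2 fold changes from -0.78 to -0.31, and 5 of the 6 largest lay in or beside a gene whose own RNA fell. Gm15801 (chr19:40560537-40561058, minus strand) lies inside Aldh18a1, a proline synthesis gene on the same strand. The region stood at 17.4, 17.6 and 17.2 CPM in wild type, 20.6, 23.7, 23.3 and 21.8 in Btbd7 KO, 9.72, 7.06, 10.8 and 10.6 in clone 1, 12.6, 9.26, 12.8 and 10.7 in clone 2 and 12.7, 15.2, 11.9 and 11.6 in clone 3. All knockout libraries were below all controls, and Btbd7 KO was above wild type without a call (log2 fold change -0.64, SE 0.12, adjusted p = 8.22e-06; edgeR). Aldh18a1 fell by 0.70 (edgeR adjusted p = 2.12e-12).

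Rps12-ps26 and Gm11718 share a surrounding or neighbouring gene, Nol11, a ribosome biogenesis factor, and both regions fell along with it (Nol11 log2 fold change -0.52, edgeR adjusted p = 6.79e-10). Rps12-ps26, inside Nol11 on the same strand, went from 26.3 ± 4.56 CPM in wild type (SD, n = 3) to 19.4 ± 1.78, 20.6 ± 3.18 and 15.8 ± 2.64 in clones 1, 2 and 3 (SD, n = 4 each; log2 fold change -0.51, SE 0.11, adjusted p = 8.24e-05, edgeR), and its knockout libraries overlapped wild type. Gm11718, upstream of which Nol11 runs on the opposite strand, went from 10.1 ± 0.533 to 6.08 ± 1.41, 7.15 ± 0.232 and 5.21 ± 1.82 (log2 fold change -0.73, SE 0.16, adjusted p = 0.000134, edgeR) without overlap. Gm6305, inside Rsl1d1, another ribosome biogenesis gene, on the opposite strand, went from 98.8 ± 8.19 to 77 ± 4.21, 67.8 ± 3.41 and 75.5 ± 12.6 (log2 fold change -0.43, SE 0.08, adjusted p = 5.72e-06, edgeR), and Rsl1d1 fell by 0.37 (adjusted p = 1.65e-06). Gm20689 lies inside Ift80, an intraflagellar transport gene that fell by 0.38 (edgeR adjusted p = 7.71e-06), and its region fell by 0.55 (adjusted p = 1.14e-05).

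Gm7665 was the isolated exception among the falls. Its region stood at 25.2, 48.1 and 22.9 CPM in wild type, 33.4, 31.1, 35.2 and 34.2 in Btbd7 KO, 16.6, 18.5, 10.7 and 27 in clone 1, 19.2, 12.6, 22 and 18.2 in clone 2 and 23.5, 15.4, 17.1 and 21.4 in clone 3. One wild-type library, replicate 3, was far above the other wild-type libraries, and clone 1 and clone 3 overlapped the lower ones (log2 fold change -0.78, SE 0.14, adjusted p = 6.33e-06; edgeR). Without wild-type replicate 3 the log2 fold change was -0.37 and the call was lost (adjusted p = 0.0502). The pseudogene's own RNA, 35.6 CPM in wild type, fell by 0.75 (edgeR adjusted p = 1.02e-07).

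None of the 4 regions with the most counts was called in the mean of the clones. The most counts, 75303 over 19 libraries, were upstream of AC122821.1, which lies inside Srrm2, a gene of a splicing coactivator, on the opposite strand. The region stood at 354, 350 and 343 CPM in wild type, 326, 335, 309 and 346 in Btbd7 KO, 322, 322, 348 and 293 in clone 1, 320, 332, 322 and 309 in clone 2 and 338, 334, 385 and 313 in clone 3. The groups overlapped, and it was called in no comparison (log2 fold change -0.09, SE 0.06, adjusted p = 0.274; edgeR), and Srrm2 was not called either (log2 fold change -0.03, edgeR adjusted p = 0.552). Next came Gm17826, inside Arhgap35, with 191 ± 7.01 CPM in wild type (SD, n = 3) and 197 ± 12.6, 179 ± 18.9 and 195 ± 15.2 in the clones (SD, n = 4 each; log2 fold change -0.00, SE 0.07). Gm3219, which was picked for having no call, so that its lack of a difference is a description, and whose upstream stretch Glud1, the glutamate dehydrogenase gene, reaches into on the same strand, was at 102 ± 2.16 in wild type and 101 ± 5.31, 104 ± 3.16 and 98 ± 4.66 (log2 fold change -0.02, SE 0.07). In all, 1165 of the tested regions were called in none of the comparisons.

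None of the 4 best covered isolated regions was called higher in the mean of the clones. Gm15427 (chr1:95498621-95499151, plus strand) had 32883 counts upstream and 57661 in the pseudogene, and its region stood at 136, 162 and 125 CPM in wild type, 158, 161, 167 and 146 in Btbd7 KO, 146, 166, 130 and 164 in clone 1, 119, 104, 150 and 121 in clone 2 and 170, 148, 134 and 156 in clone 3. The groups overlapped (log2 fold change 0.01, SE 0.08, adjusted p = 0.95; edgeR), though the clones were called unequal (adjusted p = 0.0221), with clone 2 the lowest on average. For Rps10-ps2, a ribosomal protein copy, the log2 fold change was -0.05 (SE 0.08), for Gm9794 0.02 (SE 0.16) and for Gm13456 0.04 (SE 0.09), and none was called. Scaled within the upstream table, Gm15427, Gm9794 and Gm13456 came out at -0.42, -0.40 and -0.39. Gm48338, beside Gm9512, averaged 141 ± 13.3 CPM in wild type (SD, n = 3) and 141 ± 22.8, 114 ± 23.3 and 117 ± 14.5 in the clones (SD, n = 4 each). It was not called in the mean (log2 fold change -0.19, SE 0.10, adjusted p = 0.101; edgeR) but was lower in clone 2 (-0.31, edgeR adjusted p = 0.0281), and without wild-type replicate 2 the mean was called too (-0.26, adjusted p = 0.0482).

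Kinds of pseudogene were compared next. Processed pseudogenes made up 3085 of the 3569, and 274 of the 1806 tested were higher, 15.2%, with 84 lower. Unprocessed ones had 27 of 96 higher, 28.1%, and 2 lower, and transcribed processed ones 22 of 96, 22.9%, and 5 lower. All of these lie under the 39.7% of all upstream regions. Of the 9 unitary pseudogenes tested 3 were higher: Gm15488 (log2 fold change 3.41), Gm2716 (3.25) and Gm38941 (1.03). Of the 6 transcribed unitary ones 1 was higher, Gm4275 (2.14, edgeR adjusted p = 0.0263). Of the 6 polymorphic ones, genes intact in some strains, 3 were higher: Oas1b, related to the interferon-induced oligoadenylate synthetases, beside Oas1c (2.25), the clustered protocadherin Pcdhgb8 (1.64) and the kinase pseudogene Cdk3-ps (0.82). Of these, Gm15488, Gm2716, Gm4275, Oas1b and Pcdhgb8 reached the count minimum in fewer than 3 control libraries and were tested only because of the knockout libraries. By edgeR, Gm4275 and Pcdhgb8 passed in clone 2 alone and Gm38941 in clones 2 and 3. Gm15488, Gm2716, Oas1b and Cdk3-ps passed in every clone. Cdk3-ps went from 10.7 ± 2.11 CPM in wild type (SD, n = 3) and 14.3 ± 1.63 in Btbd7 KO to 24.7 ± 1.15, 17.6 ± 1.04 and 15.1 ± 1.14 in the clones (SD, n = 4 each).

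Among 123 ribosomal protein pseudogenes, 87 were tested, 14 of them higher, or 16.1%, and 5 lower, against 39.7% and 3.5% of all upstream regions and 16.4% and 4.38% of the whole set. Apart from Rpl30-ps6, the rises included Rpl15-ps4 inside Nr6a1 (log2 fold change 1.91). Rpl31-ps7 stood at 41.2, 51 and 65 CPM in wild type, 37, 49.8, 68 and 117 in Btbd7 KO, 180, 157, 120 and 54 in clone 1, 60.3, 94, 44 and 115 in clone 2 and 59.5, 85.1, 94.2 and 74.6 in clone 3. The libraries of each group were widely spread and the groups overlapped (log2 fold change 0.81, SE 0.20, adjusted p = 0.000647; edgeR). Its upstream region held 17095 counts in all, beside 16833 for Rny1, the Y RNA gene that lies there, which changed by a like amount (0.80, adjusted p = 0.00868). Rps16-ps2 was not called (0.12, SE 0.10). Rpl10-ps6, inside Ide, the insulin-degrading enzyme gene, was lower (log2 fold change -0.28, SE 0.09, adjusted p = 0.00771; edgeR), as was Ide (-0.35, adjusted p = 4.44e-09), and without wild-type replicate 4 it was no longer called (-0.23, adjusted p = 0.0697).

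Olfactory and vomeronasal receptor pseudogenes, whose functional relatives serve in sensory neurons, gave 13 tested regions, of which 6 were higher and 1 lower, or 46.2% higher, near the 39.7% of all upstream regions. Vmn2r-ps94 (3.21), Olfr1372-ps1 (2.91), Vmn2r-ps24 (2.11), Vmn2r-ps3 (2.10), Olfr755-ps1 (1.63) and Vmn2r-ps88 (0.92) were higher on the log2 scale by edgeR, all at group means under 4 CPM. These were named after their values were seen. Vmn2r-ps94, Olfr1372-ps1, Vmn2r-ps24 and Vmn2r-ps3 reached the count minimum in fewer than 3 control libraries, so they were tested only because of the knockout libraries in which they were high. None of the 6 passed in every clone: by edgeR, Vmn2r-ps24 and Vmn2r-ps3 passed in clone 3 alone, Vmn2r-ps94, Olfr1372-ps1 and Vmn2r-ps88 in clones 1 and 3, and Olfr755-ps1 in clones 1 and 2. Olfr1372-ps1 averaged 0.872 ± 0.198 and 0.763 ± 0.166 CPM in clones 1 and 3 but 0.07 ± 0.0981 in clone 2 (SD, n = 4 each), beside 0.0385 ± 0.0667 in wild type (SD, n = 3). Vmn2r-ps52 was lower, from 29.9 ± 3.74 CPM in wild type to 26.6 ± 3.54, 20.5 ± 1.54 and 22.9 ± 3.29 (log2 fold change -0.36, SE 0.10, adjusted p = 0.00232; edgeR), and Btbd7 KO, at 23.5 ± 0.679 CPM (SD, n = 4), lay between clones 1 and 3 without a call.

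Each region was then set beside the RNA of its own pseudogene and of a gene around or near it. Among genes, 853 of the pseudogenes were tested, and 60 were higher in Zcchc8 KO, 7.03%, and 57 lower, against 17.2% and 19.1% of all genes. In Btbd7 KO 19 were higher and 18 lower, against 8.77% and 8.44%. For 636 both the region and the pseudogene were tested. Where the region was higher, in 101, the pseudogene was higher in 33, lower in 3 and not called in 65. Where it was lower, in 40, the pseudogene was lower in 7, higher in 1 and not called in 32. Pearson's r between the 2 log2 fold changes was 0.43 across these regions, a description only, since both come from the same libraries and reads may be shared.

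The gene compared was the one with the most counts among all genes over the pseudogene's start or within 5 kb upstream. It may differ from the surrounding gene and need not lie on the strand that names the class. The compared gene was called the same way more often beside falls than beside rises, a difference that was not tested. Of 31 regions called lower in the class inside on the opposite strand, with a tested gene to compare, that gene was lower too in 23. In the class inside on the same strand this was so in 21 of 25. Of the regions called higher, the compared gene was higher in 18 of 86 in the opposite-strand class and in 11 of 56 in the same-strand class. With a same-strand neighbour the gene was higher in 8 of 12, and with an opposite-strand neighbour in 12 of 57. Over all genes 17.2% were called higher and 19.1% lower. The genes compared with rises inside a gene, and with rises that have opposite-strand neighbours, thus lie near that background. Those compared with rises that have same-strand neighbours lie above it. Across all tested pairs Pearson's r was 0.29 inside on the same strand (n = 398 regions), 0.28 inside on the opposite strand (n = 746), 0.74 for same-strand neighbours (n = 91) and 0.45 for opposite-strand neighbours (n = 123), again from shared libraries.

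**Figure D4:**
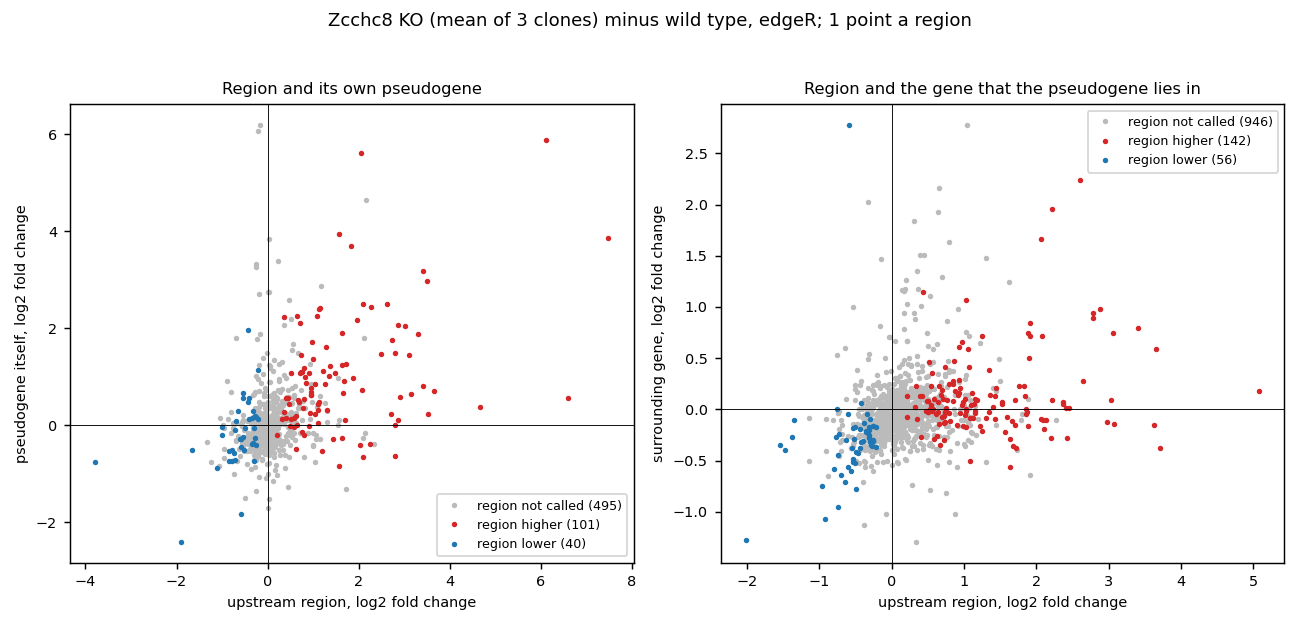
Log2 fold change of each upstream region (Zcchc8 KO mean minus wild type, edgeR; horizontal axis) against that of the pseudogene itself (left, 636 regions) and of another gene (right, 1144 regions of pseudogenes inside a gene). The other gene is the one with the most counts over the pseudogene's start or within 5 kb upstream, whatever its panel title says. Red points are regions called higher, blue lower and grey not called. Blue points sit mostly below 0 on the right, where 44 of 56 of the compared genes were called lower, and red points on the right spread around 0.

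The clones differed in part of the set. A test that the 3 Zcchc8 KO clones are equal passed in 160 of 2077 regions, 7.70%, where 10.9% of all upstream regions did. The lowest p belonged to Gm4813 (chr13:81029103-81029901, minus strand), inside 9330111N05Rik on the opposite strand, at 28.2, 21.3 and 20.3 CPM in wild type, 20.4, 24.8, 18.4 and 19.2 in Btbd7 KO, 4.07, 5.03, 6.57 and 8 in clone 1, 51.1, 66.2, 46.1 and 58.3 in clone 2 and 10.9, 8.96, 14.8 and 10.9 in clone 3. Clone 2 was above the controls and clones 1 and 3 below them, with no overlap (log2 fold changes against wild type -1.98, 1.25 and -1.04 in clones 1, 2 and 3; edgeR, clones unequal, adjusted p = 3.88e-27). 9330111N05Rik, at 305 counts in all, was called higher in the mean of the clones (2.77, edgeR adjusted p = 5.99e-05). The pseudogene's own RNA had the same order as the region, at 4.33 CPM in wild type and 1.21, 13.6 and 2.58 in the clones.

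Gm6366, isolated, showed the reverse, with 4.74 ± 0.971 CPM in wild type (SD, n = 3), 6.78 ± 1.01 in Btbd7 KO and 11.4 ± 1.1, 2.36 ± 0.526 and 10.7 ± 2.51 in clones 1, 2 and 3 (SD, n = 4 each; edgeR, clones unequal, adjusted p = 6.41e-13). Gm18066, inside Palld, the gene of an actin-binding protein, stood at 6.23 ± 0.311 in wild type (SD, n = 3), 13.4 ± 1.78 in Btbd7 KO and 9.15 ± 1.65, 3.93 ± 0.399 and 15.7 ± 2.63 in the clones (SD, n = 4 each; adjusted p = 6.55e-13), and was higher than wild type in Btbd7 KO as well (log2 fold change 1.11, edgeR adjusted p = 2.57e-05). For these regions the mean over clones describes no clone. Its calls against wild type were lost without single libraries for Gm6366 (0.32, adjusted p = 0.247 without wild-type replicate 2) and for Gm18066 (0.38, adjusted p = 0.0941 without wild-type replicate 2, and 0.39, adjusted p = 0.0811 without replicate 4).

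The negative control line had its own differences. Gm14407, inside Gm14401 on the opposite strand, stood at 2.31, 0.74 and 0.176 CPM in wild type, 6.11, 6.63, 5.33 and 8.9 in Btbd7 KO, 1.05, 1.36, 2.77 and 2.19 in clone 1, 8.89, 14.4, 12.9 and 14.9 in clone 2 and 4.6, 5.81, 6.14 and 6.76 in clone 3. Btbd7 KO was above wild type, and so were clones 2 and 3, but clone 1 overlapped it (Btbd7 KO log2 fold change 2.62, SE 0.33, edgeR adjusted p = 6.79e-08; Zcchc8 KO mean 2.23, and 3.55 without wild-type replicate 2). Gm14401 was higher in the mean of the Zcchc8 KO clones too (1.95, edgeR adjusted p = 1.77e-05). Gm18760, inside the choline dehydrogenase gene Chdh, stood at 1.79, 1.11 and 3.99 CPM in wild type, 0.24, 0.133, 0 and 0.17 in Btbd7 KO, 2.63, 3.12, 1.6 and 3.23 in clone 1, 5.55, 4.52, 7.13 and 4.37 in clone 2 and 5.87, 4.42, 9.72 and 7.17 in clone 3. Btbd7 KO was below every other library (log2 fold change -3.83, SE 0.50, edgeR adjusted p = 1.84e-07). Its rise in the Zcchc8 KO mean, 0.98, was 0.67 and not called without wild-type replicate 3 (adjusted p = 0.0755) and 1.64 without replicate 4. Gm28976, with Psca, a gene of a cell surface antigen, as its neighbour, stood at 5.66, 4.66 and 2.82 CPM in wild type, 1.26, 0.663, 0.372 and 1.36 in Btbd7 KO, 9.72, 9.65, 7.29 and 8.52 in clone 1, 8.05, 5.02, 5.35 and 6.31 in clone 2 and 1.56, 1.52, 0.767 and 0.947 in clone 3. Btbd7 KO and clone 3 were both below wild type, and clone 1 was above it (log2 fold changes -2.18, -1.85 and 1.01, edgeR adjusted p = 3.16e-06, 1.59e-06 and 0.00164).

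**Figure D5:**
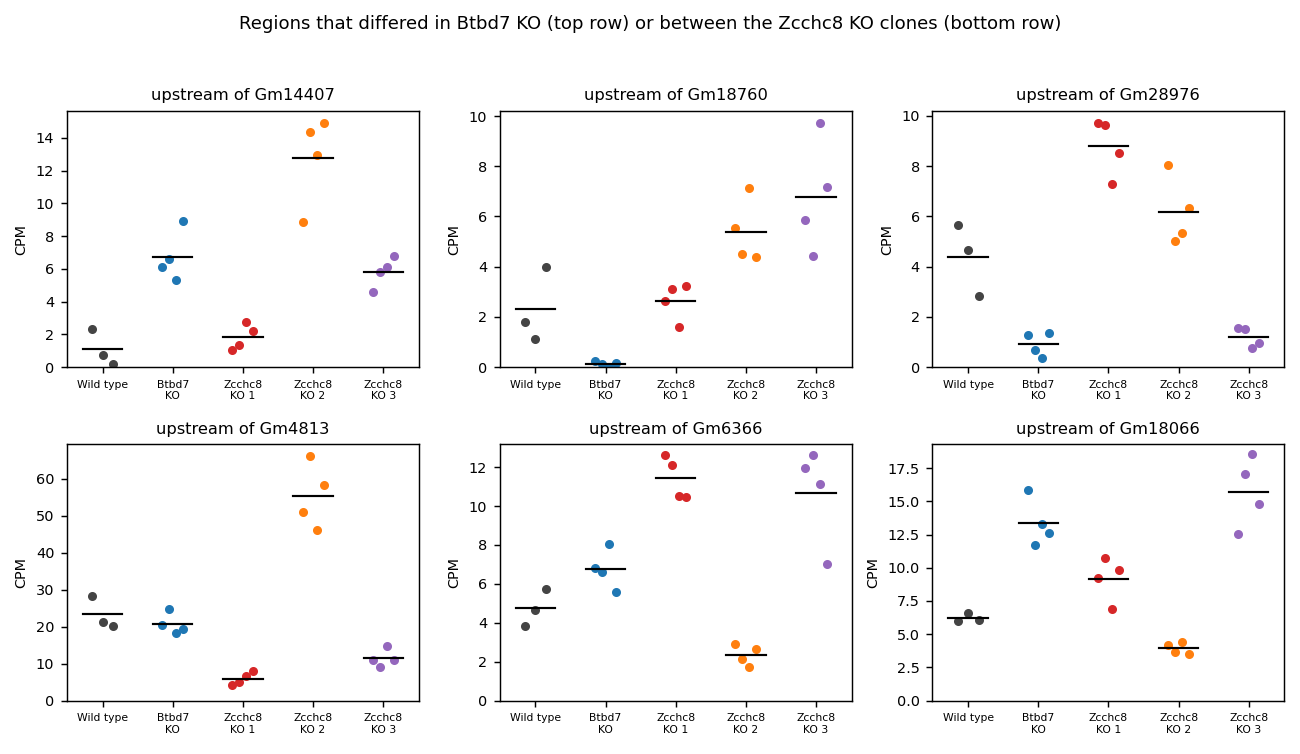
CPM by library for the 3 regions with the lowest p in Btbd7 KO against wild type (top) and the 3 with the lowest p in the test that the Zcchc8 KO clones are equal (bottom), each panel with its own axis from 0. Points are libraries and bars are group means, and in each bottom panel clone 2 stands apart from clones 1 and 3.

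The genes that act on such transcripts were themselves measured in the same libraries. Of 24 genes of the NEXT complex, its polyadenylated counterpart PAXT, the cap-binding complex and the exosome, all tested, 1 was higher in the mean of the Zcchc8 KO clones and 9 were lower, against 17.2% and 19.1% of all genes, and the median log2 fold change was -0.14, beside -0.01 over all genes. The rise was in Srrt (0.48), the cap-binding cofactor. The largest fall was in Zcchc8 itself (-0.61), which was far below wild type in clone 2 only. Next came the exosome genes Exosc9 (-0.43), Exosc8 (-0.38), Exosc1 (-0.33) and Dis3 (-0.31), with Mtrex, the NEXT helicase, at -0.30. Rbm7, the NEXT RNA-binding subunit, was not called (-0.14, edgeR adjusted p = 0.105).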

How the data were processed

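Total RNA of SIMS cells was sequenced with the Illumina TruSeq Stranded total RNA kit, per the labels' protocols. The authors deposited a table of raw read counts per gene and a table of raw read counts per upstream region. Reads were checked with FastQC and aligned with STAR 2.7.3a, per the submitters' processing notes. The genome build, the counting tool, its strand setting, its handling of reads with several matches and the extent of a region are not given in the sources used here.

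Rows were matched to GENCODE M21 by gene ID, 3560 of 3569 with the version as well. Upstream counts were scaled by the library sizes and TMM factors of the gene table and tested with edgeR 4.0.16 in R 4.3.3 (quasi-likelihood fit over all 17711 upstream regions passing filterByExpr, 5 group means, Benjamini-Hochberg adjustment, threshold 0.05). The filter asked for 0.73 CPM, or 10 counts in a median library, in at least 3 libraries. The SE given with a log2 fold change is its absolute value divided by the square root of the test's F statistic. Summed counts went into exact permutation tests over libraries, two-sided (scipy 1.17.1). On simulated counts the fit recovered 74% of 50 regions raised 2-fold and 70% of 50 lowered as much, and called 6 of 16491 unchanged ones. The changed regions were drawn only from better covered ones, all above the set's median total of 132 counts. Every region had the same dispersion, no TMM factors were used and few regions changed. The recovery therefore does not describe the thinly covered regions of the set. Alternatives included DESeq2 1.42.0, other scalings and filters, a replicate block, leaving out each library and cell lines as replicates.

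The members and lists were chosen with earlier results of these data known. Regions named are the 6 largest rises and 6 largest falls that passed in every clone and in their mean, with at least 50 counts a library and no call in Btbd7 KO. Added to these are the 4 with the most counts, the 4 isolated regions and the 4 ribosomal protein pseudogenes with the most counts, the 3 lowest p in Btbd7 KO and between clones, and the 3 best covered with no call. Others were named after their values were seen. Of the isolated regions with the largest rises none had a RefSeq promoter window of its own, so the windows printed were chosen otherwise. The floor of 3 counts was a fixed choice and not an estimate of error, and PCR copies were not marked.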

Additional observations from a re-analysis of the deposited data

Results flagged for a closer look

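The named regions and the summed values of each library were searched for outliers, without wild type, which had 3 libraries. Each of 132 groups of 4 libraries was searched for a library far from the other 3, where chance finds about 1 in 20. There were 3: clone 2 replicate 2 upstream of Gm20689, at 22.4 CPM, clone 3 replicate 2 upstream of Gm6305, at 94.2 CPM, and clone 2 replicate 1 upstream of Gm17826, at 207 CPM, each the highest of its group.

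Levels differed between the 3 Zcchc8 KO clones in 13 of the named regions, by edgeR's quasi-likelihood test that the clones are equal. Whether these differences come from the knockout or from other features of the clones was not tested. Of the large rises, the adjusted p was 4.46e-09 for Gm20257, 1.47e-06 for Gm5530, 0.000171 for Rpl30-ps6, 3.84e-12 for Gm8079 and 0.000339 for Gm11701. In these 5, every clone was above wild type and the clones differed in size of rise. Of the regions picked for Btbd7 KO, edgeR gave an adjusted p of 3.3e-10 for Gm14407, 0.00531 for Gm18760 and 2.01e-10 for Gm28976. Gm4813 (3.88e-27), Gm6366 (6.41e-13) and Gm18066 (6.55e-13) were picked by this same edgeR test, so their adjusted p is a description. Of the well covered regions, Gm15427 had an edgeR adjusted p of 0.0221 and Rpl31-ps7 of 0.0145.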

How the results depend on the processing

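In place of 341 higher and 91 lower in the Zcchc8 KO mean, scaling within the upstream table gave 196 and 538, with 174 and 521 in clone 1, 170 and 366 in clone 2, 181 and 376 in clone 3, and 220 and 564 against Btbd7 KO. It turned Gm15427 to -0.42, Gm9794 to -0.40, Gm13456 to -0.39, Rps16-ps2 to -0.31 and Gm18066 to -0.018. Over all alternatives, the lowest log2 fold change was -0.52 for AC122821.1, -0.43 for Gm17826, -0.44 for Gm3219 and -0.48 for Rps10-ps2. These regions, not called with the scaling used above, were each called in at least 1 alternative. Without TMM factors, 55 were lower in the mean, 43 in clone 2 and 95 against Btbd7 KO. Asking for a log2 fold change over 1 left 12 lower in the mean, 24, 16 and 9 in clones 1, 2 and 3, 11 higher and 14 lower in Btbd7 KO, and 286 higher and 18 lower against Btbd7 KO. Calls in the mean and each clone numbered 177 higher and 9 lower. The mean of clones 2 and 3, added after the data were seen, had 57 lower. Lines as replicates, with Btbd7 KO beside wild type as controls, had 24 lower. Gm4813 turned to 0.11 and 0.12 under these, and Gm18066 to -0.10 with lines as replicates. Isolated against inside regions gave 0.15 with a 10 kb window, and 0.15 to 0.22 without single libraries, the test missing its threshold without wild-type replicate 2, 3 or 4.

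Without single libraries, calls in the Zcchc8 KO mean ranged from 297 to 347 higher and 67 to 89 lower. In Btbd7 KO they ranged from 13 (without wild-type replicate 3) to 33 higher (without wild-type replicate 2), and from 15 to 33 lower, with 17, 21 and 15 without Btbd7 KO replicates 2, 3 and 4 and 18 without wild-type replicate 4. DESeq2 called 391 higher and 74 lower. For named regions, 831 of 870 values kept their side of the threshold, and their direction where they were called. Only 11 of the 29 regions did so in every alternative. A change of direction between fits that both gave no call was not counted.

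Replicate numbers did not pair the libraries: correlations of deviations over 36 same-numbered pairs ran from -0.05 to 0.03, and 2 of 19 libraries matched their own number best. A fit with the replicate block called 325 higher and 82 lower. Depth limits what can be seen, since 1492 of the 3569 regions had too few counts for a test.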
